A study of Homo sapiens with 12 samples.

Results

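Cytosolic ribosomal protein genes were described by how far H3K27ac, the acetylation of lysine on histone H3 that marks active promoters and enhancers, extended over them in 2 human pancreatic ductal adenocarcinoma lines. Members were the RefSeq protein-coding genes (GRCh38) whose symbol starts with RPL or RPS and a number, with RPSA, RPLP0, RPLP1 and RPLP2, and without the RPS6K kinases and the paralogs whose symbol ends in L or in L and a number. The rule found 83 genes of which 81 lie on chromosomes 1 to 22 and X, out of 19974 protein-coding genes there, and the 2 on chromosome Y were not analysed. Of the 81 genes, 46 encode proteins of the large subunit and 31 encode proteins of the small subunit. The other 4 match the rule by symbol alone: 3 readthrough loci, RPS10-NUDT3, RPL17-C18orf32 and RPL36A-HNRNPH2, and RPS19BP1, which encodes a binding partner of RPS19 and no ribosomal protein.

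The cytosolic ribosome joins a small subunit, which reads the mRNA, and a large subunit, which forms the peptide bonds, and each ribosomal protein is needed in about equal amounts. Their genes are short, are transcribed in nearly every dividing cell, and start within a run of pyrimidines, the 5′ terminal oligopyrimidine (TOP) tract, through which mTOR and LARP1 control the translation of their mRNAs. MYC promotes ribosome production, and an excess of free RPL5 and RPL11 over rRNA binds the ubiquitin ligase MDM2.

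The 12 libraries fell into 6 groups of 2. CFPAC1 and MiaPaCa2, both established lines, were profiled as bulk cells, untreated or after 2 h with 1000 U/ml of human interferon beta (IFNbeta). The remaining groups were clones isolated from CFPAC1 by dilution after infection with the CRISPR vector that the labels spell lentiCRIPSv2: 2 WT clones with the vector, and 2 IRF1 KO clones in which the vector also expressed wt Cas9 and a guide RNA against IRF1, which encodes an interferon-induced transcription factor. The clones were profiled without IFNbeta. CFPAC1 cells and clones were grown in IMDM and MiaPaCa2 in DMEM, so line and medium cannot be told apart. Nothing in the labels says that bulk libraries of one group are separate cultures, so p-values measure the spread between these samples, which may be technical. Lists held 59896 to 109861 peaks per library, the read depth is unknown, and the sequencer of each library is not given in the sources used here. All 10 epithelial markers fixed for the check of identity were covered in every CFPAC1 group, whereas CDH1, EPCAM, GRHL2 and KLF5 were at 0 in MiaPaCa2. Of the same 10, 6 were covered in both untreated MiaPaCa2 libraries and 5 in both MiaPaCa2 libraries with IFNbeta. Of 6 leukocyte markers, PTPRC, the leukocyte antigen, was at 0 in all groups. However, 4 of the 6 were covered in both libraries of each CFPAC1 group and 3 in both libraries of each MiaPaCa2 group. IRF1 was covered by 5485 and 5611 bp in the WT clones and by 7533 and 8924 bp in the KO clones, and peak coverage of this kind does not check a small edit.

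Promoter sequence shows what these genes share apart from the mark. RefSeq promoters (GRCh38.p14), which run from 250 bases before to 50 bases after the start, were matched by symbol for 62 of the 77 genes that encode a ribosomal protein, and the 60 bases around the start are shown for 7 genes whose coverage differed widely between the lines and for 8 chosen for their known roles or their low coverage. Each is written 5′ to 3′ on the strand of the gene, with base 41 as the annotated start, and capitals mark the longest unbroken run of C and T that reaches within 20 bases of the start. The first set holds genes with wider coverage in MiaPaCa2:
RPS7: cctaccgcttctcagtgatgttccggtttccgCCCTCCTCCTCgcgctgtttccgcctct
RPS10: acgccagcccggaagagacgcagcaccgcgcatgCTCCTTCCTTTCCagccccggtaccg
RPS15: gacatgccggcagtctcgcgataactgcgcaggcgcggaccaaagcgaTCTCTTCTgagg
RPL7A: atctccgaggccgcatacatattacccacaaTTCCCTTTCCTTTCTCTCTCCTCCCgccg
RPL22: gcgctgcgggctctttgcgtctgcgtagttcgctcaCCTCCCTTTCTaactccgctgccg
RPL36: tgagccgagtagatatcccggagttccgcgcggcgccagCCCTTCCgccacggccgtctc
RPL38: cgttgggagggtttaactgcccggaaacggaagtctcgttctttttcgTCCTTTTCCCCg
The second set holds genes named for their roles and RPL32, the least covered gene:
RPSA: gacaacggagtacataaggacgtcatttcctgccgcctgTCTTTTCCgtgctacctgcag
RPS6: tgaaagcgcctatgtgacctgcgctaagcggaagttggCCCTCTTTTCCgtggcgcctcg
RPS19: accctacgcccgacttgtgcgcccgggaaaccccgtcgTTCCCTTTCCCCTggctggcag
RPS27A: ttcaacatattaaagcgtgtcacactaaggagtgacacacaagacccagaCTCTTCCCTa
RPLP0: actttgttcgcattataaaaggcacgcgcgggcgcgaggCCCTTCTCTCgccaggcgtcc
RPL11: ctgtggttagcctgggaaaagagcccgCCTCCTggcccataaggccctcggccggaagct
RPL13A: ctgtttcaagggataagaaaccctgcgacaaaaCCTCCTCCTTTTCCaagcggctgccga
RPL32: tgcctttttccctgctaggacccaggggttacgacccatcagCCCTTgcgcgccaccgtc
The first set lies, with its strand, as RPS7 at chr2:3575220-3575279 (plus), RPS10 at chr6:34426050-34426109 (minus), RPS15 at chr19:1438356-1438415 (plus), RPL7A at chr9:133348178-133348237 (plus), RPL22 at chr1:6199576-6199635 (minus), RPL36 at chr19:5690255-5690314 (plus) and RPL38 at chr17:74203638-74203697 (plus). The second set lies as RPSA at chr3:39406680-39406739 (plus), RPS6 at chr9:19380217-19380276 (minus), RPS19 at chr19:41860215-41860274 (plus), RPS27A at chr2:55231863-55231922 (plus), RPLP0 at chr12:120201092-120201151 (minus), RPL11 at chr1:23691739-23691798 (plus), RPL13A at chr19:49487568-49487627 (plus) and RPL32 at chr3:12841546-12841605 (minus).

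The run of C and T was 25 bases long in RPL7A, 14 in RPL13A and 8 in RPSA, and in RPL11, RPL36 and RPL32 it was 6, 7 and 5 bases long. A run of at least 8 bases lay within 20 bases of the start in 52 of 62 members (83.9%), against 16.6% of 15813 protein-coding genes with a promoter in the table. The first transcribed base was C in 46 of 62 members (74.2%), against 11.3% of all, and CTTTC or CTTTTC stood within 20 bases of the start on the sense strand in 37 members (59.7%), against 6.22%. Over the 300 bases and both strands, CCGGAAG, a core of ETS factors such as GABPA, was found in 21 members (33.9%) against 14.2% of all, and AAGATGGC, a YY1 core, in 6 (9.68%) against 3.91%. The E-box CACGTG was found in 3 members (4.84%) against 8.87%, TATAAA in 5 (8.06%) against 9.64%, GGGCGG in 34 (54.8%) against 58.5% and CCAAT in 21 (33.9%) against 36.3%. The core of interferon response elements, GAAA with GAAA again after any 2 bases, was found in 4 members (6.45%) against 3.17%, and the NRF1 motif, GCGCA followed directly by TGCGC, in 1 (1.61%) against 1.76%. Median GC content was 59% in the members and 62.7% in all promoters. A match describes letters in this window and is not a bound site.

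Coverage is given as covered length, the bases under peaks within 5 kb on either side of a gene end, at the end with the larger mean over the 12 libraries. It measures how far peaks extend, not how high they are. The members lie on 21 chromosomes, with 12 on chromosome 19, and the median member was 5015 bp long, against 24170 bp for all protein-coding genes, so one window often spans a whole member. Strand was known for 64 of the 81 genes: the window sat at the annotated start in 44, at the other end in 20, and 14 of those 20 windows still held the start. An end of another protein-coding gene lay in 47 of the 81 windows, and the readthrough loci shared bases with RPS10, RPL17 and RPL36A. Exons of these genes have many processed copies elsewhere in the genome, and how reads that match several places were treated is not given in the sources used here.

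All 81 genes were covered in all 12 libraries. Median covered length of the members was 3181 and 3359 bp in untreated CFPAC1, 2878 and 3018 bp in CFPAC1 with IFNbeta, 4968 and 4632 bp in untreated MiaPaCa2, 3985 and 4495 bp in MiaPaCa2 with IFNbeta, 3502 and 3228 bp in the WT clones, and 3481 and 3269 bp in the IRF1 KO clones. The 4 MiaPaCa2 medians lay above the 8 CFPAC1 medians without overlap. The median of 11168 genes covered in all 12 libraries was 2228 to 2699 bp, that of 77 mitochondrial ribosomal protein genes 2140 to 2552 bp, and that of 38 proteasome genes 2337 to 2873 bp, ranges that stayed below 2878 bp, the lowest median of the members. In each library the median of the large-subunit genes was above that of the small-subunit genes, at 5482 against 4274 bp in untreated MiaPaCa2 library 1 and at 3241 against 2937 bp in untreated CFPAC1 library 1.

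**Figure D1:**
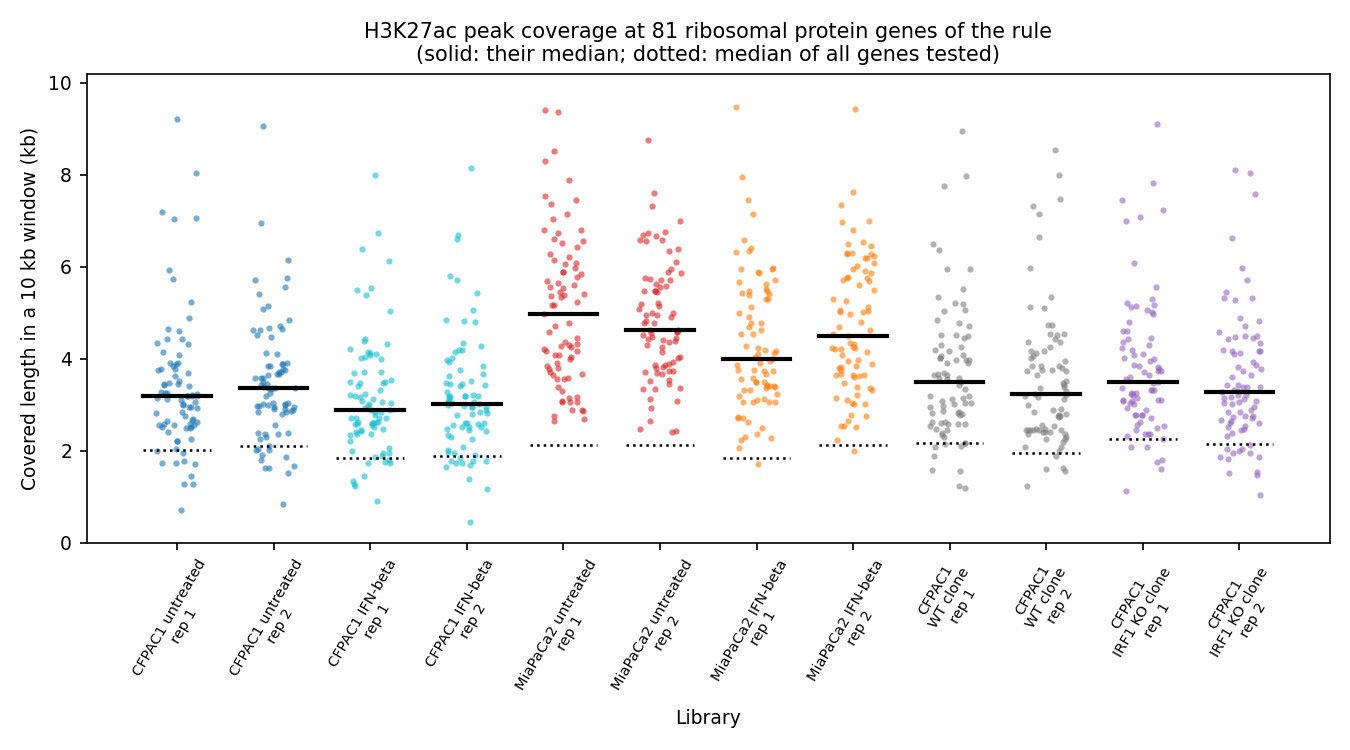
Covered length (kb, vertical axis) of each of the 81 genes in each of the 12 libraries (horizontal axis), with the median of the 81 genes as a solid line and the median of all 15513 tested genes as a dotted line. The solid lines sit between 3985 and 4968 bp in the 4 MiaPaCa2 libraries and between 2878 and 3502 bp in the 8 CFPAC1 libraries, above the dotted line in each.

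The widest and highest peaks at the median member also ranked high in each list. The widest peak at the median member was 1917 to 2883 bp wide in CFPAC1 libraries and 3384 to 3578 bp in MiaPaCa2 libraries. Ranked within its own list, the authors' fold enrichment of the highest peak at the median member lay at percentile 93.8 to 95.9 in CFPAC1 libraries and at 97.1 to 98.4 in MiaPaCa2 libraries, and 60 to 70 of the 81 genes in CFPAC1 and 75 to 81 in MiaPaCa2 reached percentile 90. Lists differ in length, so these ranks show no change between libraries. Each rank sets the highest peak of a window against every peak of the list, at a gene or not. Other genes were not ranked in this way, so high ranks are not shown to be particular to the members.

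Level differed widely among members. The 4 with the largest mean covered length were RPL23A, RPS18, RPL8 and RPLP0, which encode proteins of the large subunit except RPS18. RPL23A, in a window with ends of NEK8 and TLCD1, was covered by 7998 to 9205 bp in the 8 CFPAC1 libraries and by 8753 to 9468 bp in the 4 MiaPaCa2 libraries, ranges that overlap and lie close to the limit of 10 kb. RPLP0, which forms the base of the ribosomal stalk that recruits elongation factors, was covered by 7059 and 6146 bp in untreated CFPAC1 and by 6792 and 6674 bp in untreated MiaPaCa2, values that overlap. At the other extreme, mean covered length over the 12 libraries was 1746 bp for RPL32, 1848 bp for RPL6, 2000 bp for RPL29 and 2143 bp for RPS20. RPL32 was covered by 1267 and 1663 bp in untreated CFPAC1 and by 2891 and 2403 bp in untreated MiaPaCa2. The start of RPL6 in the promoter table lies 7393 bp inside the annotated gene, and no library had a peak on it.

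The comparison of the untreated lines asked where MiaPaCa2 and CFPAC1 differ. In MiaPaCa2, covered length was higher at 60 of the 81 genes and lower at 1, RPL7, by limma at an adjusted p under 0.05 (Benjamini-Hochberg over 15513 genes). Among all tested genes 29% were higher and 19.9% lower, and among the genes covered in all 12 libraries 31.9% were higher and 12.8% lower, so the members' share of 74.1% higher was above this background. Median change was 0.52 on the log2(covered bp + 500) scale, a 1.44-fold difference on that scale, against 0.14 for all tested genes and 0.20 for genes covered in all 12 libraries. Large-subunit genes were higher at 35 of 46 and lower at 1 (median 0.56), and small-subunit genes were higher at 21 of 31 (median 0.51). The count fell to 39 of 80 genes, 38 higher and 1 lower, when only 2 kb on either side was counted, with a median of 0.28. Over the alternatives, this one among them, the median of all tested genes was 0.04 to 0.27. The share of all tested genes called within 2 kb is not given here, so this count has no background beside it. The lower gene within 2 kb was not RPL7 but RPL35A, named after its value was seen, in a window at the far end of the gene with ends of DRC9 and LMLN. Within 2 kb it had 2190 and 2219 bp in untreated CFPAC1 and 1359 and 1282 bp in untreated MiaPaCa2 (-0.55 ± 0.13, limma adjusted p = 0.00839), whereas in the window at its start it had 2564 and 2911 bp against 5446 and 3926 bp (0.68 ± 0.14, limma adjusted p = 0.00296). Leaving out 1 library at a time left a median of 0.50 to 0.58 for the members, against 0.10 to 0.17 for all tested genes. Epithelial markers moved with the line as well, with summed coverage of 55526 to 75812 bp in CFPAC1 and 39007 to 45349 bp in MiaPaCa2, and their part in the result was not tested. All peaks together covered 84.7 and 94.8 Mb in untreated CFPAC1 and 78.2 and 71.8 Mb in untreated MiaPaCa2, the opposite order to that of the members.

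**Figure D2:**
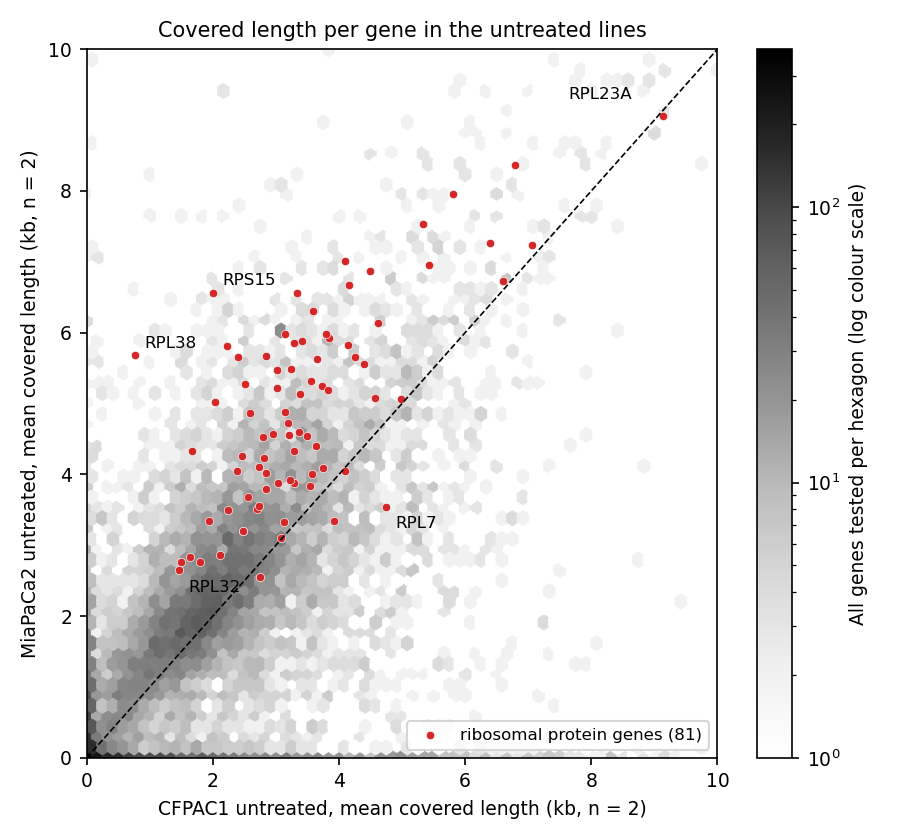
Mean covered length (kb, 2 libraries per line) in untreated CFPAC1 (horizontal axis) and untreated MiaPaCa2 (vertical axis) for the 81 genes (red points) over all tested genes (grey hexagons, log colour scale). Most red points lie above the dashed line of equal length, and RPL7, at 4748 and 3540 bp, lies below it.

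Among small-subunit genes large differences were found at RPS15, RPS10 and RPS7. RPS15, a protein of the head of the small subunit, has its window at the far end of the gene, with an end of DAZAP1 in it, and was covered by 2201 and 1793 bp in untreated CFPAC1 and by 6737 and 6376 bp in untreated MiaPaCa2, and none of the 8 CFPAC1 libraries, at most 2737 bp, reached the lowest MiaPaCa2 value of 5504 bp. Most of the added bases lay beyond the gene, with 200 and 54 bp there in untreated CFPAC1 and 4050 and 3661 bp in untreated MiaPaCa2, against 2001 and 1739 bp and 2686 and 2714 bp toward the gene. The difference over the whole window was 1.56 ± 0.13 (SE; n = 2 per line; limma adjusted p = 8.04e-06), and it was 1.29 ± 0.15 (limma adjusted p = 9.7e-05) in a window centred on the start.

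RPS7, whose protein can bind MDM2, was covered by 2505 and 2304 bp in untreated CFPAC1 and by 5362 and 5955 bp in untreated MiaPaCa2. No other protein-coding gene ends in its window, and the difference was 1.14 ± 0.13 (limma adjusted p = 9.56e-05). RPS10, a protein at the mRNA entry side, was covered by 1720 and 1626 bp in untreated CFPAC1 and by 4089 and 4569 bp in untreated MiaPaCa2, a difference of 1.21 ± 0.10 (limma adjusted p = 1.24e-05). The readthrough locus RPS10-NUDT3 has the same window, hence the same values.

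Among large-subunit genes the largest difference in the windows used was at RPL38, a protein linked to the translation of Hox mRNAs in mouse embryos. Its window, at the end of the gene and shared with an end of TTYH2, was covered by 703 and 829 bp in untreated CFPAC1 and by 6143 and 5213 bp in untreated MiaPaCa2 (2.34 ± 0.27, limma adjusted p = 8.22e-05). Most of these bases lay beyond the gene, on the TTYH2 side, with 703 and 829 bp in CFPAC1 and 4107 and 3594 bp in MiaPaCa2. At the start of RPL38 itself 1453 and 1615 bp were covered in untreated CFPAC1 and 3578 and 3647 bp in untreated MiaPaCa2, a smaller difference of 1.03 ± 0.18 (limma adjusted p = 0.000952). It was below the 1.14 ± 0.15 of RPL36 in its start window (limma adjusted p = 0.00015). The end used for RPL38 was picked by the mean over all 12 libraries, MiaPaCa2 included. Untreated CFPAC1 had fewer bases at that end than at the start. In the start window of RPL38 the lines overlapped, since IRF1 KO clone 2 had 2468 bp and MiaPaCa2 IFNbeta library 1 had 2195 bp.

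RPL36, in a window with ends of HSD11B1L and LONP1 and with 2042 and 2013 bp in untreated CFPAC1 and 5404 and 4632 bp in untreated MiaPaCa2, differed by 1.18 ± 0.15 (limma adjusted p = 0.000136). RPL22, which binds the Epstein-Barr virus RNA EBER1 and is often mutated in tumours, had 2843 and 2838 bp against 5880 and 5471 bp (0.94 ± 0.10, limma adjusted p = 6.13e-05). For both genes the line values did not overlap, with at most 2878 bp for RPL36 and 3872 bp for RPL22 among 8 CFPAC1 libraries and at least 3904 and 4038 bp among 4 MiaPaCa2 libraries.

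RPL7A, in a window with ends of MED22 and SURF1, had 3225 and 3446 bp in untreated CFPAC1 and 7368 and 5757 bp in untreated MiaPaCa2 (0.93 ± 0.12, limma adjusted p = 0.00015). RPL26, at the exit of the peptide tunnel, had 3267 and 3019 bp against 5884 and 6091 bp (0.89 ± 0.22, limma adjusted p = 0.00862). The locus RPL17-C18orf32 had 2199 and 2965 bp against 4767 and 4952 bp (0.87 ± 0.15, limma adjusted p = 0.00118). In these 3 windows, too, each MiaPaCa2 library was above each CFPAC1 library. RPS19BP1, the binding partner, had 2998 and 2034 bp in untreated CFPAC1 and 5650 and 4895 bp in untreated MiaPaCa2 (1.01 ± 0.22, limma adjusted p = 0.00441), but MiaPaCa2 IFNbeta library 1, at 2290 bp, lay among the CFPAC1 values. The call at RPL26 was lost within 2 kb (adjusted p = 0.0591) and without untreated CFPAC1 library 2 (adjusted p = 0.0515), and that at RPL17-C18orf32 was lost within 2 kb (adjusted p = 0.200).

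**Figure D3:**
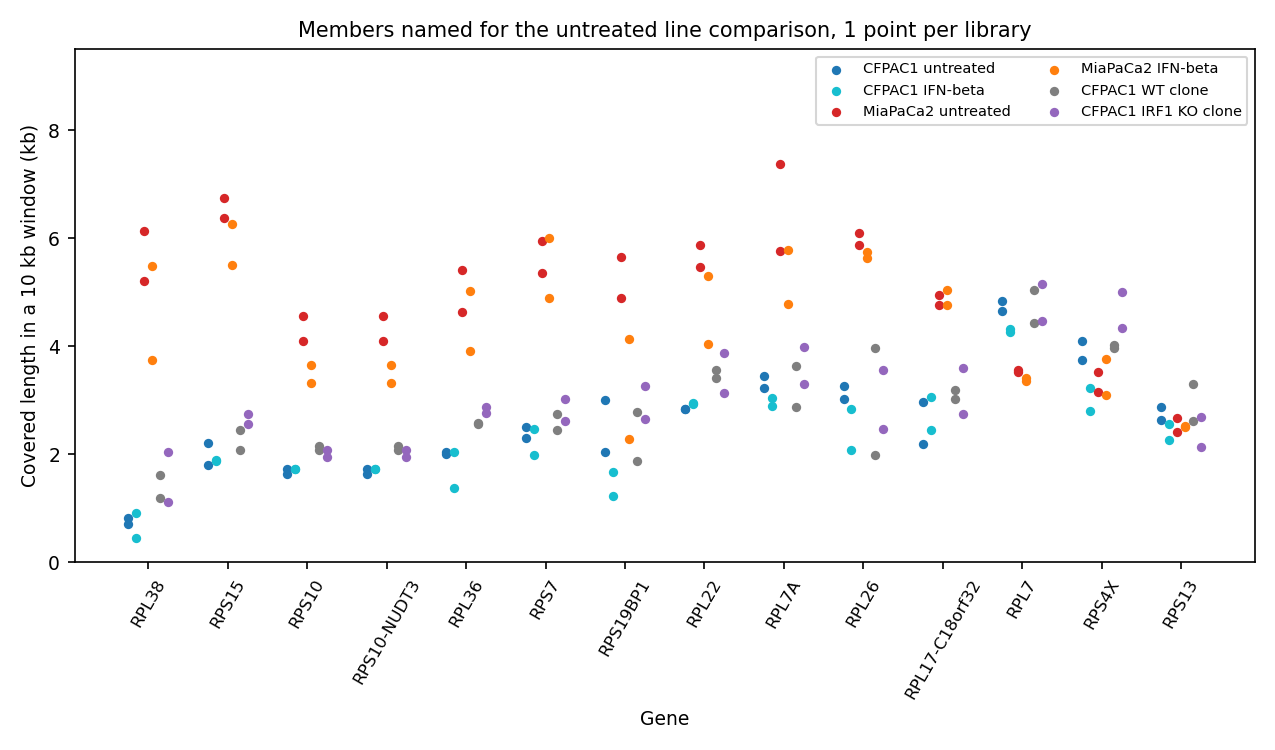
Covered length (kb, vertical axis) in each of the 12 libraries (points, coloured by group) for genes with large differences between the untreated lines and for the 3 with a negative fitted change in MiaPaCa2 (horizontal axis). Red and orange MiaPaCa2 points stand above the others at RPS15, RPS7 and RPL36, below them at RPL7, and among them at RPS4X and RPS13.

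RPL7 went the other way. It was covered by 4652 and 4843 bp in untreated CFPAC1 and by 3558 and 3522 bp in untreated MiaPaCa2 (-0.32 ± 0.09, limma adjusted p = 0.0176), and its window holds an end of RDH10, which encodes a retinol dehydrogenase. On the side of RPL7 the values overlapped, with 1980 and 2139 bp in CFPAC1 and 2173 and 2090 bp in MiaPaCa2. On the side of RDH10 they were 2672 and 2704 bp against 1385 and 1432 bp. The call was lost within 2 kb (-0.03, adjusted p = 0.774), in 3 of 4 fits without 1 library, with a pseudocount of 100 bp and with stricter peaks. RPS4X and RPS13, at -0.15 ± 0.15 (limma adjusted p = 0.439) and -0.04 ± 0.16 (limma adjusted p = 0.870), did not pass.

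Members named for their roles were mostly higher in MiaPaCa2 within 5 kb, though some of these calls were lost within 2 kb. RPSA, the laminin receptor protein of the small subunit, had 2580 and 3019 bp in untreated CFPAC1 and 4243 and 4814 bp in untreated MiaPaCa2, a difference of 0.67 ± 0.14 (limma adjusted p = 0.00318). RPS6, the substrate of the S6 kinases, had 2743 and 3658 bp against 4358 and 4768 bp (0.52 ± 0.12, limma adjusted p = 0.00590). RPL5 and RPL11, the pair that binds MDM2, differed by 0.60 ± 0.14 and 0.42 ± 0.13 (limma adjusted p = 0.00630 and 0.0204).

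RPL13A, which leaves the ribosome after interferon gamma in monocytes to repress translation, differed by 0.62 ± 0.08 (limma adjusted p = 0.00013), with 4339 and 4637 bp in untreated CFPAC1 and 7036 and 6691 bp in untreated MiaPaCa2. RPS27A, made as a fusion with ubiquitin, differed by 0.41 ± 0.10 (limma adjusted p = 0.00606). RPS19, the gene most often mutated in Diamond-Blackfan anaemia, had 4318 and 4479 bp against 5545 and 5561 bp and did not pass (0.36 ± 0.18, limma adjusted p = 0.129), nor did RPLP0 (0.09 ± 0.15, limma adjusted p = 0.646). Within 2 kb the calls at RPS6 (0.17), RPL11 (0.28) and RPS27A (0.04) were lost (limma adjusted p = 0.159, 0.0541 and 0.661). Those at RPSA, RPL5 and RPL13A were kept there, and RPS19 and RPLP0 again did not pass.

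Libraries treated with IFNbeta gave a second comparison of the lines, added after the first was seen, from 4 other libraries. Covered length was higher in MiaPaCa2 at 47 of the 81 genes and lower at 1, against 24.6% higher and 17.9% lower among all tested genes and 26.4% and 11.4% among genes covered in all 12 libraries. Median change was 0.44 against 0.10 for all tested genes. Of the 60 genes higher in the untreated comparison 45 were also higher here (75% of the 60 and 95.7% of the 47), and RPL7 was lower in both. This overlap was not counted for all tested genes, so it is not shown to be particular to the members. RPS15 (1.41 ± 0.13), RPL36 (1.17 ± 0.15) and RPS7 (1.12 ± 0.13) again passed (limma adjusted p = 1.74e-05, 0.000158 and 0.000117). RPL38, in the same window at the far end of the gene, was at 2.12 ± 0.27 (limma adjusted p = 0.000167). Leaving out 1 library left 34 to 40 calls, the fewest without CFPAC1 IFNbeta library 1.

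Over all libraries, the 4 of MiaPaCa2 lay above the 8 of CFPAC1 without overlap at 44 of the 81 genes (54.3%) and below them at 1. The same held at 18.2% of all tested genes (above) and 17.2% (below), and at 19.9% and 11.8% of genes covered in all 12 libraries. Among mitochondrial ribosomal protein genes it held above at 20 of 77 (26%), and among proteasome genes at 5 of 38 (13.2%).

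The added coverage in MiaPaCa2 lay mainly downstream of the start, where 5 kb spans a short gene and runs past its end. For the 62 ribosomal protein genes with a known start, the median covered length in the 5 kb before the start was 997 to 1178 bp in the 8 CFPAC1 libraries and 1114 to 1432 bp in the 4 MiaPaCa2 libraries, ranges that overlap. In the 5 kb after the start it was 1700 to 2105 bp in CFPAC1 and 2785 to 3431 bp in MiaPaCa2, ranges that do not. Mean covered length after the start was higher in MiaPaCa2 at 61 of 62 genes, by a median of 843 bp, and before the start at 45 of 62, by a median of 215 bp. For 9221 genes covered in all 12 libraries the medians were 73.4 bp after and 114 bp before the start, and 58.7% and 64.8% of them were higher in MiaPaCa2. The gain after the start exceeded that before it at 50 of 62 members, against 45.3% of the 9221 genes.

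RPS10 shows the pattern in one gene. Before its start, 535 and 414 bp were covered in untreated CFPAC1 and 855 and 860 bp in untreated MiaPaCa2. After it, 1184 and 1211 bp were covered in CFPAC1 and 3233 and 3708 bp in MiaPaCa2. In RPL22 both sides were longer, with 1175 and 1155 bp before and 1667 and 1682 bp after the start in untreated CFPAC1, and 2407 and 1848 bp before and 3472 and 3622 bp after it in untreated MiaPaCa2.

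**Figure D4:**
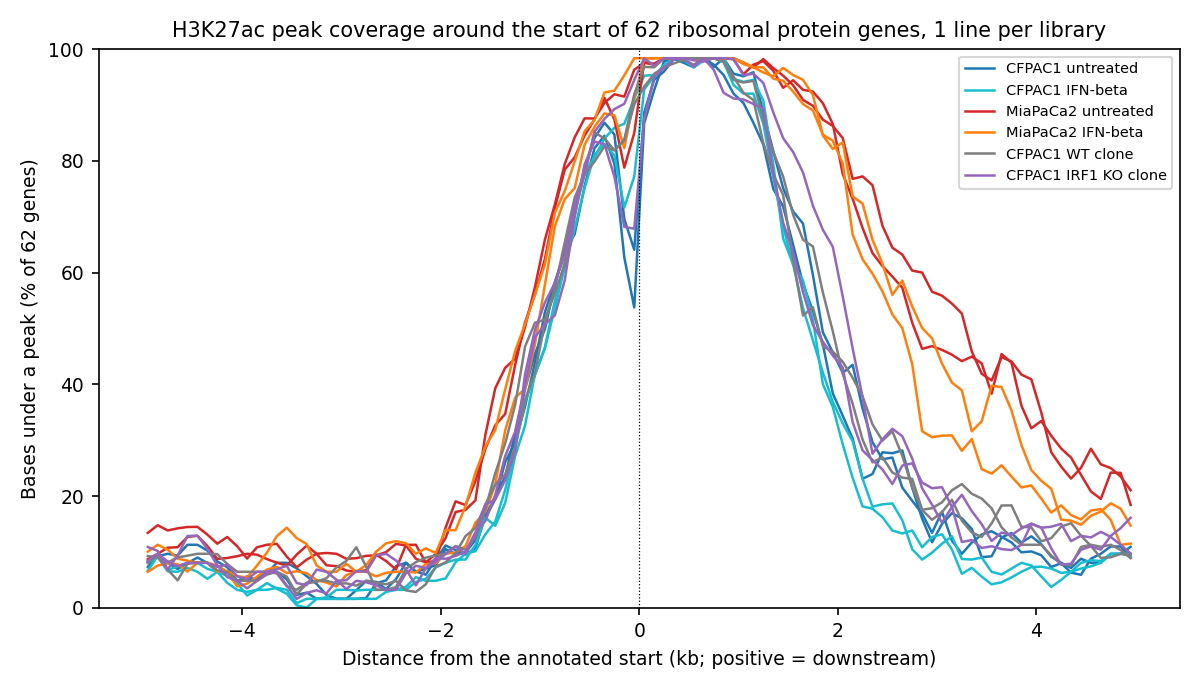
Share of bases under a peak (%, vertical axis) across 62 ribosomal protein genes by distance from the annotated start (kb, positive downstream, horizontal axis), with 1 line per library coloured by group. The bin centred 2950 bp downstream of the start is covered to 30.6 to 56.6% in the 4 MiaPaCa2 libraries and to 9.89 to 21.4% in the 8 CFPAC1 libraries and the 2 lines also stand apart in part of the stretch before the start, as at -850 bp with 68.3 to 72.2% against 52.4 to 58.3%.

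As a share of the gene, peaks covered 36.8 to 49.3% of the median member in CFPAC1 libraries and 51.9 to 64.1% in MiaPaCa2 libraries. At least 50% of the gene was covered in 26 to 39 members in CFPAC1 and in 45 to 56 in MiaPaCa2. The annotated start itself lay under a peak in 47 to 63 of 64 members in CFPAC1 libraries and in 62 to 63 in MiaPaCa2 libraries. It lay under a peak in all 12 libraries for 37 of 64 members. Another 25 had a peak there in each MiaPaCa2 library but not in each CFPAC1 library, a rule easier to meet in 4 libraries than in 8. IRF1 KO clone 2 had the fewest, 47, and untreated CFPAC1 had 50 and 49, while WT clone 1 and IRF1 KO clone 1 had 63 each, so clones and bulk cells of CFPAC1 overlap in this measure. Neither starts under a peak nor shares of the gene were counted for other genes, so these counts are not shown to be particular to the members.

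Other genes of the ribosome pathway were counted in the same fit. Translation factors gave 15 higher (39.5%) and 3 lower of 38, with a median of 0.24, where 29% of all tested genes were higher. EEF2, which moves the ribosome along the mRNA, had 3474 and 3333 bp in untreated CFPAC1 and 8010 and 7420 bp in untreated MiaPaCa2 (1.13 ± 0.11, limma adjusted p = 3.58e-05), and EIF3K, a subunit of the initiation factor eIF3, had 5907 and 5784 bp against 1423 and 985 bp (-1.85 ± 0.33, limma adjusted p = 0.00145). Ribosome biogenesis factors gave 21 higher (46.7%) and 2 lower of 45 (median 0.31). The nucleolar proteins NCL and NPM1 were higher by 0.53 ± 0.12 and 0.35 ± 0.08 (limma adjusted p = 0.00500 and 0.00563).

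Regulators of these genes gave 3 higher and 1 lower of 10, a share of 30% higher that is near the 29% of all tested genes. MYC had 6481 and 6630 bp in untreated CFPAC1 and 9583 and 9609 bp in untreated MiaPaCa2 (0.58 ± 0.09, limma adjusted p = 0.000445), GABPA and YY1 were higher, and MAX, the partner of MYC, was lower (-0.55 ± 0.11, limma adjusted p = 0.00266). Between the lines treated with IFNbeta the regulators gave 1 higher and 0 lower of 10. MAX had 3602 and 4278 bp in treated MiaPaCa2 and 2806 and 2444 bp in the IRF1 KO clones of CFPAC1, so its values overlapped between the lines. Between the untreated lines mitochondrial ribosomal protein genes gave 30 higher and 5 lower of 77 (median 0.26) and proteasome genes 9 higher and 5 lower of 38 (median 0.21). Their shares higher were 39% and 23.7%, the first above and the second below the 29% of all tested genes. These differences between lists were not tested.

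IFNbeta was compared with no treatment in each line. In CFPAC1, 0 of the 81 genes passed (limma adjusted p under 0.05), where 0.677% of all tested genes were higher and 0.309% lower, and 6 members (7.41%) had an unadjusted p under 0.05, against 11.3% of all tested genes. Median change was 0.05 against 0.04 for all tested genes, and 53 members (65.4%) had positive values, against 57.2% of all tested genes, but without centring on the library mean the members' median was -0.09 and that of all genes -0.10. In the same fit 17 of 43 interferon-stimulated genes were higher and 0 lower, with a median of 1.04. Among the pathway lists, EIF3M was higher (0.86, limma adjusted p = 0.0224) and EEF1G lower (-0.54, limma adjusted p = 0.0373) of 38 translation factors, 2 of 77 mitochondrial ribosomal protein genes and 1 of 38 proteasome genes were higher, and biogenesis factors and regulators gave 0 calls (5 and 2 at an unadjusted p under 0.05).

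RPL27 had the largest positive value, with 3776 and 3674 bp untreated and 5037 and 4330 bp after IFNbeta (0.44 ± 0.12, limma adjusted p = 0.166). Its window holds an end of IFI35, an interferon-induced gene, and in the window at its own start the values were 2969 and 3489 bp untreated and 3078 and 2902 bp after IFNbeta, which overlap. RPS20 and RPS16 followed at 0.31 and 0.28. RPL19 had 5731 and 5137 bp untreated and 3544 and 3522 bp after IFNbeta, groups that do not overlap (-0.41 ± 0.09, limma adjusted p = 0.0727), and this 1 gene passed without the filter on covered genes (adjusted p = 0.0497), without centring (adjusted p = 0.0162) and with quantile normalization (adjusted p = 0.0219). The window of RPL19, at its start, also holds an end of CACNB1. On the side away from RPL19, 3862 and 3286 bp were covered untreated and 1980 and 1995 bp after IFNbeta. Toward RPL19 the values were 1868 and 1850 bp untreated and 1563 and 1526 bp after IFNbeta, so most of the lost bases lay outside the gene. RPS19BP1 and RPS19 were at -0.48 ± 0.22 and -0.33 ± 0.18 (limma adjusted p = 0.477 and 0.572).

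In MiaPaCa2, 0 of the 81 genes passed after IFNbeta (limma), against 0.561% higher and 0.0902% lower among all tested genes, and 6 members (7.41%) had an unadjusted p under 0.05, against 7.29% of all tested genes. Median change was -0.05 against 0.03 for all tested genes, and it was 0.03 within 2 kb. In the same fit 23 of 43 interferon-stimulated genes and 2 of 38 proteasome genes were higher (medians 1.44 and -0.01), and the other pathway lists gave 0 calls. RPS16, with 6072 and 5179 bp untreated and 7137 and 6275 bp after IFNbeta, had the largest positive value (0.32 ± 0.12, limma adjusted p = 0.552), and RPL27 was at 0.18. RPS19BP1 had 5650 and 4895 bp untreated and 2290 and 4134 bp after IFNbeta (-0.60 ± 0.22, limma adjusted p = 0.514), and RPL34 was at -0.37.

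Whether the lines differ in their response to IFNbeta was tested as an interaction. None of the 81 genes passed (0 by limma, 9 at an unadjusted p under 0.05), where 0.0322% of all genes were higher in CFPAC1 and 0.0258% lower. The share at an unadjusted p under 0.05 was 11.1% of the members and 7.47% of all tested genes, a difference that was not tested. RPL32 (0.50 ± 0.21) and RPL34 (0.48 ± 0.37) had positive differences, and RPL19 (-0.33 ± 0.13) and RPS4X (-0.30 ± 0.21) negative ones. RPL19 had an adjusted p of 0.575 by limma.

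Clones with the IRF1 guide were compared with WT clones, all without IFNbeta. None of the 81 genes passed (0 by limma, 13 at an unadjusted p under 0.05), where 0.709% of all tested genes were higher and 0.541% lower. At an unadjusted p under 0.05 the members' share of 16% was near the 14.4% of all tested genes. Median change was -0.09 against -0.05 for all tested genes, and 62 members (76.5%) had negative values, against 57.8% of all tested genes, but without centring the medians were 0.02 and 0.06. Of 43 interferon-stimulated genes 0 passed (2 at an unadjusted p under 0.05), and in the pathway lists MAX alone passed (-0.78, limma adjusted p = 0.0171). RPL10A had the smallest adjusted p (0.103), with 4066 and 3792 bp in the WT clones and 3317 and 3074 bp in the KO clones, groups that do not overlap (-0.37). RPS20 had 2103 and 2261 bp against 1757 and 1518 bp (-0.44 ± 0.12, limma adjusted p = 0.145), RPL6 1892 and 1603 bp against 1599 and 1043 bp (-0.43 ± 0.19), and RPSA 3083 and 3722 bp against 2783 and 2590 bp (-0.40 ± 0.14).

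The positive value of RPL37A in the clones rested on 1 library. RPL37A, at 3664 and 2189 bp against 3025 and 4823 bp (0.26 ± 0.20), was at -0.04 without KO clone 2. RPL31 had 2527 and 2471 bp against 3727 and 3322 bp (0.31 ± 0.12, limma adjusted p = 0.263).

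**Figure D5:**
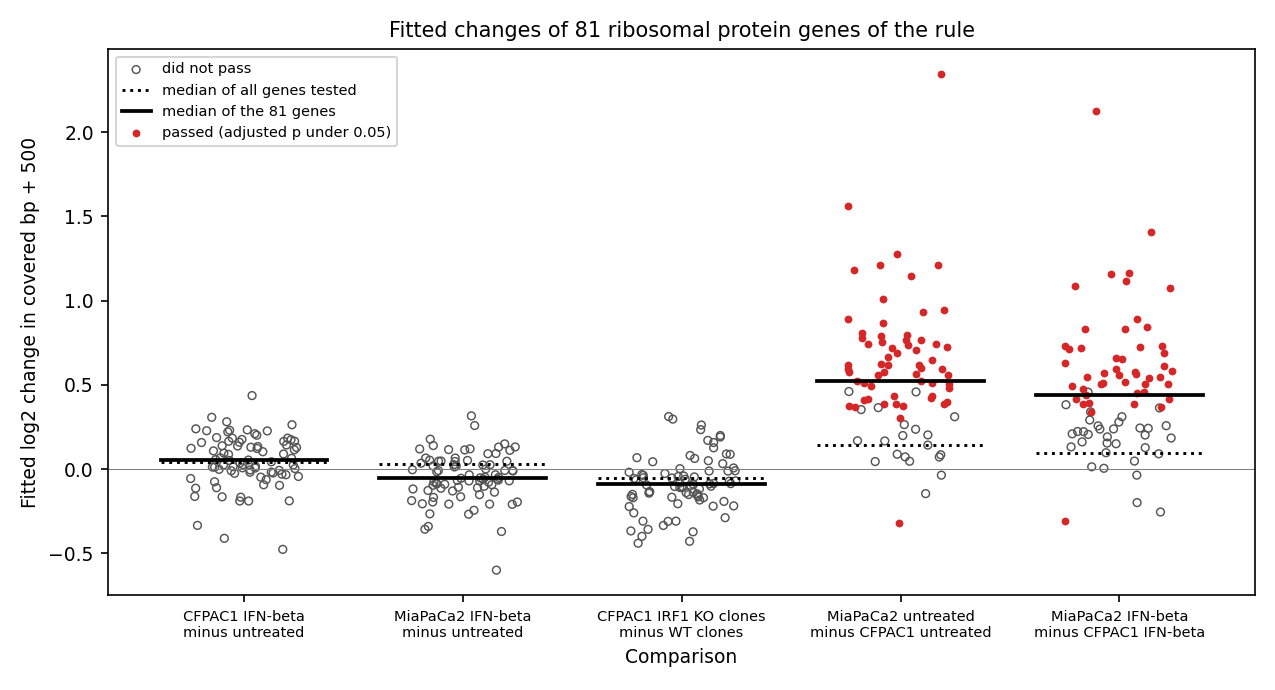
Fitted change in log2(covered bp + 500) (vertical axis) of the 81 genes in 5 comparisons (horizontal axis), with red points for genes that passed and open points for the rest, a solid line at the median of the 81 genes and a dotted line at that of all tested genes. The 81 genes centre on 0.52 and 0.44 in the line comparisons and on 0.05, -0.05 and -0.09 in the IFNbeta and IRF1 comparisons, where no gene passed.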

How the data were processed

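The authors deposited 1 list of H3K27ac peaks per library for the 12 libraries, 2 in each of 6 groups. Per the submitters' processing notes, reads were handled with Trimmomatic 0.38, Bowtie2 2.2.6, SAMtools and MACS2 2.1.0.20150731 on GRCh38. The control library, filters and depth are not given in the sources used here. For every peak the authors deposited a fold enrichment ratio at the summit and −log10 values of p and q, library by library, which served here to rank peaks inside one list or to filter them. The lowest −log10 q in a deposited list was 1.30 to 1.32 in 11 libraries and 1.37 in IRF1 KO clone 1.

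Members and gene lists were chosen with earlier results of these data known. Genes came from RefSeq tables, and covered length was taken within 5 kb of the gene end with the larger mean over 12 libraries. The 15513 genes covered in at least 2 libraries were tested as log2(covered bp + 500), centred on each library's mean, with limma 3.58.1 in R 4.3.3: 1 model over 6 groups, a trended prior, 6 residual degrees of freedom, and Benjamini-Hochberg adjustment over all genes at 0.05. The script was tested on simulated data. Named genes were the called members (the 12 with the largest change where there were more), otherwise the 3 highest and 3 lowest per comparison, the 4 most and 4 least covered, members that share a window, and members with known roles. A few genes that this rule names, and 2 of the gene lists, are not reported here. RPL10A and the pathway genes given with values were chosen after their values were seen. Alternatives were another pseudocount, filter, centring, peak threshold, window and fit, and leaving out each library.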

Additional observations from a re-analysis of the deposited data

How the results depend on the processing

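Of the changes of single named members under the alternatives, 449 kept their direction and side of the threshold, 3 gained a call, 9 lost one and 9 changed sign. The sign changes were RPS19 in CFPAC1 with IFNbeta (0.22 within 2 kb), RPL27 in MiaPaCa2 with IFNbeta (-0.34 within 2 kb, -0.15 at the start), RPL37A in the clones (-0.045 without KO clone 2), RPS4X between the lines (0.037 with the same number of peaks per library) and RPS13 between the lines (0.057 with a pseudocount of 100 bp, 0.21 within 2 kb, -0.076 to 0.0062 with 1 library left out). The cause was not tested.

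Calls among the members in the untreated line comparison numbered 39 within 2 kb, 47 to 53 without 1 library and at most 63 (pseudocount of 100 bp), and the median change was 0.28 within 2 kb, 0.39 with quantile normalization, 0.46 without centring and with the same number of peaks, 0.69 with a pseudocount of 100 bp, and 0.50 to 0.58 without 1 library. In CFPAC1 with IFNbeta 1 member passed without the filter, without centring and with quantile normalization, and the median was 0.11 with a pseudocount of 100 bp, 0.019 without the filter, -0.093 without centring and 0.094 within 2 kb. In MiaPaCa2 with IFNbeta 1 member passed within 2 kb, with a median of 0.034 there, -0.13 without centring and -0.069 to -0.020 without 1 library. In the clones 1 member passed within 2 kb and 0 to 1 without 1 library, and the median was -0.17 with a pseudocount of 100 bp, 0.021 without centring, -0.021 with quantile normalization, -0.12 with peaks at a −log10 q of at least 5, and -0.17 to -0.035 without 1 library. For the difference in response, the median was 0.17 with a pseudocount of 100 bp, 0.058 without centring, 0.084 with quantile normalization, 0.080 within 2 kb, 0.088 with the same number of peaks, and 0.089 to 0.13 without 1 library. The comparison of the treated lines gave 48 calls, and 34 to 40 without 1 library.

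Calls over all genes ranged from 3 to 213 in CFPAC1 with IFNbeta, 31 to 250 in MiaPaCa2 with IFNbeta, 0 to 733 in the clones, 5508 to 8082 between the untreated lines and 0 to 57 for the difference in response. Same-numbered libraries are not said to be paired, and their deviations correlated at -0.06 to 0.21. With the replicate block, 61 members passed between the untreated lines, as without it, and 0 in the IFNbeta and clone comparisons. Depth is unknown, so covered length can move with it.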
